A study of Mus musculus with 9 samples.

Results

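Mitochondrial (mt) complex III, the ubiquinol-cytochrome c reductase of the inner membrane, passes electrons from ubiquinol to cytochrome c and pumps protons as it does so. It works as a dimer, in which each monomer joins the mitochondrially encoded cytochrome b to a set of subunits made from nuclear genes. Its 3 redox subunits are cytochrome b, cytochrome c1 and the Rieske iron-sulfur protein. The others are the core proteins on the matrix side and small subunits that surround the redox centers. Nephron progenitors of the cap mesenchyme, marked by SIX2, both renew themselves and give rise to the epithelium of the nephron.

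The 10 genes described here are the nuclear-encoded complex III genes that the deposited table holds under the symbols *Uqcrq*, *Uqcrb*, *Uqcrc1*, *Uqcrc2*, *Uqcrfs1*, *Uqcrh*, *Uqcr10*, *Uqcr11*, *Cyc1* and *Bcs1l*. They were chosen by symbol from the 26858 genes of the table, all 10 were found, and all 10 passed the filter on low counts that left 14990 genes for testing. *Uqcrq*, also named *Qpc*, encodes the small ubiquinone-binding subunit that was inactivated in this study. *Bcs1l* encodes an assembly factor, and the other 9 genes encode subunits.

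RNA was measured in SIX2 progenitors sorted by fluorescence from mouse kidneys at E18.5, late in gestation. The control group (n = 4, replicates 71, 72, 73 and 76) was heterozygous, *Six2-Qpc*+/-, and carried *Six2-eGFP/cre* tg/+ with 1 floxed *Qpc* allele. The mutant group (n = 5, replicates 74, 75, 77, 78 and 79) was *Six2-Qpc*-/-, with *Six2-eGFP/cre* tg/+ and *Qpc* flox/flox. Both groups therefore carried the transgene, in which the *Six2* promoter drives an eGFP/Cre fusion, and control cells that had recombined kept 1 intact *Qpc* copy. No library without Cre was analysed here, so each fold change below compares the loss of both copies with the loss of 1. Each of the 9 libraries was 1 sample. The labels do not say whether the samples came from separate litters, and p-values measure the spread between these samples.

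Library totals were 22571729 to 23691130 counts in control and 21040536 to 23986458 in mutant, and an exact 2-sided permutation test of this difference gave p = 0.135. Summed levels of 8 nephron progenitor markers were 1540 to 1910 CPM in control and 1760 to 2090 CPM in mutant. CPM stands for counts scaled to a normalized library of 1000000. None of the 8 passed the edgeR threshold, at an adjusted p (Benjamini-Hochberg) under 0.05. Markers of stroma summed to 86.8 to 130 CPM in control and 193 to 613 CPM in mutant, and 6 of the 7 tested were higher. Markers of committed cells and early nephrons summed to 327 to 650 CPM in control and 245 to 355 CPM in mutant, and 3 of the 6 were lower. Over all genes tested, 7.82% passed as higher in mutant and 7.02% as lower.

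*Uqcrq* lies on chromosome 11, minus strand, at positions 53427922 to 53430831 of mm10 as the table gives them. In the GENCODE annotation of that build its transcript Uqcrq-201 has 2 exons. Exon 1, from 53430536 to 53430827, holds 154 coding bases, and exon 2, from 53427922 to 53429150, holds the other 95, stop codon included, and the 3′ untranslated region. The coding sequence is shown because it is the message of the targeted gene, and to show how its coding bases fall on the exons. Lower case marks the coding bases ahead of the last exon and capitals mark those in the last exon, read 5′ to 3′.
Uqcrq coding sequence: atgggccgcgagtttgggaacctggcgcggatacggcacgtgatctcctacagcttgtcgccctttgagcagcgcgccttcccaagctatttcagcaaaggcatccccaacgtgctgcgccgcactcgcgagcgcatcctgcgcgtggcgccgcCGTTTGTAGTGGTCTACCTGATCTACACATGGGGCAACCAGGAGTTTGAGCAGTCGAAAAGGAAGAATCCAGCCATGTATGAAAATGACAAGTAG

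Reads on the targeted gene were examined first, since they check the labels. *Uqcrq* was measured at 107, 76.8, 91.1 and 101 CPM in control replicates 71, 72, 73 and 76. In mutant replicates 74, 75, 77, 78 and 79 it was measured at 16.5, 28.2, 22.6, 20.3 and 19.0 CPM. All 5 mutant libraries lay below the lowest control. The means were 94.1 ± 13.3 CPM among control libraries (SD, n = 4) and 21.3 ± 4.45 CPM among mutants (SD, n = 5). *Uqcrq* fell by 2.14 on the log2 scale (SE 0.16, 95% interval -2.49 to -1.79, edgeR adjusted p = 2.09e-05), and an exact 2-sided permutation test over libraries gave p = 0.00794, the smallest that the 126 splits of 9 libraries allow. Among the 14990 genes tested it ranked 3 by edgeR p, and 54 tested genes had a log2 fold change at or below its own, of which 8 averaged 10 CPM or more.

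The *Uqcrq* row was not empty in any mutant library. Between 386 and 637 counts remained per library, against 1972 to 2511 in control. Relative to the control mean, the residual level was 17.5% in replicate 74, 30.0% in 75, 24.1% in 77, 21.5% in 78 and 20.2% in 79, with a mean of 22.7% ± 4.73 (SD, n = 5). The control libraries themselves spread from 81.6% to 114% of their mean. For the other 9 genes the mutant libraries lay between 66.5% and 141% of the control mean. The counts are given per gene and not per exon, so reads on exons that recombination leaves in place, reads from progenitors with an unrecombined allele and reads from other cells in the sort cannot be told apart. In bulk RNA, fewer cells that express a gene and less RNA of it per cell cannot be told apart either. By quantitative real-time PCR on sorted cells, the paper reports mutant *Qpc* at a smaller fraction of control than here. The reason for this difference was not tested. The paper also does not fully exclude differentiating control cells with low GFP from its sort.

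**Figure D1:**
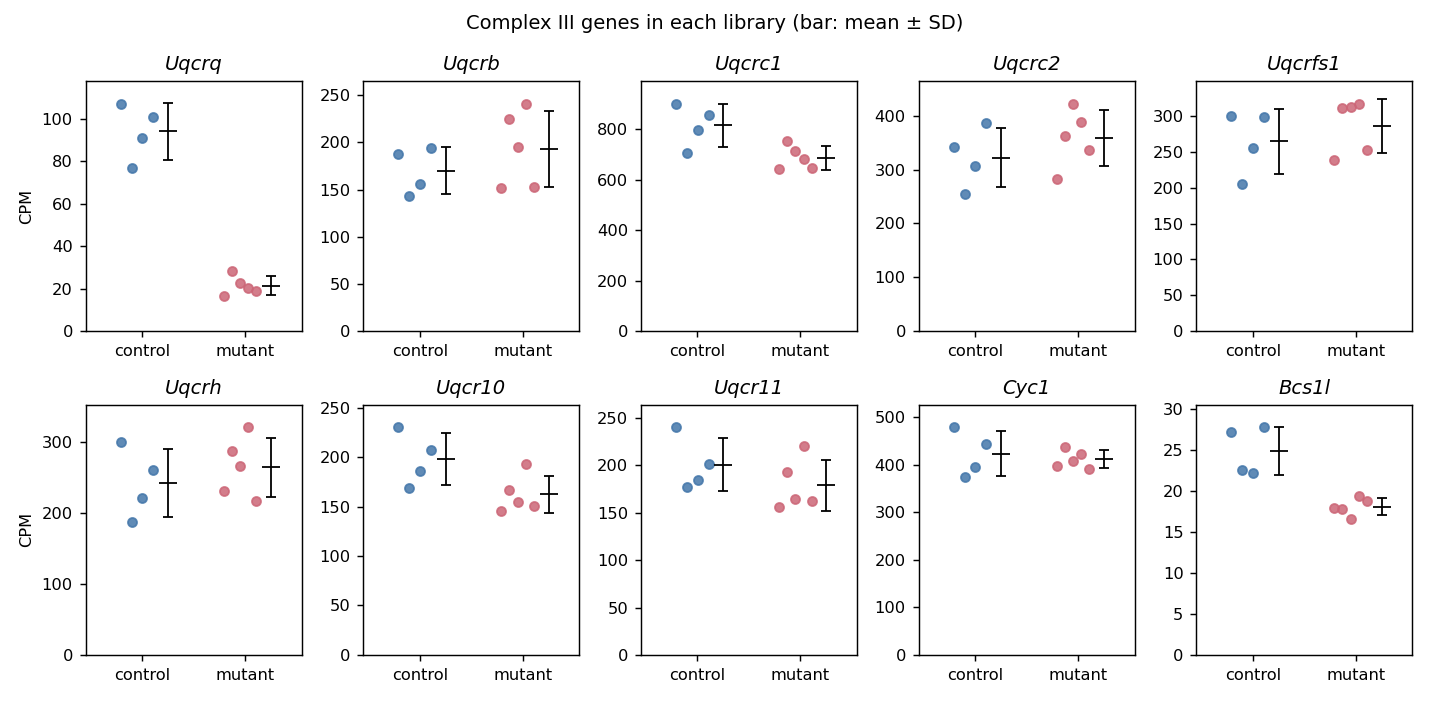
Level of each of the 10 complex III genes in CPM (vertical axes from 0, scaled per gene) in the 4 control (blue) and 5 mutant (red) libraries; bars are mean ± SD. *Uqcrq* and *Bcs1l* have no overlap between genotypes, at 76.8 to 107 against 16.5 to 28.2 CPM and 22.1 to 27.7 against 16.5 to 19.3 CPM.

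The residual *Uqcrq* level and the summed markers of other cell types were set side by side in the 5 mutant libraries. Replicate 75 had the highest residual level and the highest summed stromal markers, 613 CPM. Replicate 74 had the lowest residual level and the next highest stromal sum, 382 CPM. Replicates 79, 78 and 77 had stromal sums of 295, 224 and 193 CPM. Myeloid markers summed to 4.9 CPM in replicate 74, 23.2 in 75, 46.7 in 77, 17.4 in 78 and 22.3 in 79, against 2.3 to 6.2 CPM in control, and 1 of the 4 tested, *Cd68*, was higher. Ureteric bud markers summed to between 28.4 and 67.6 CPM in mutant and 46.5 and 66.7 CPM in control, and none of the 4 tested passed. *Wnt9b* had no more than 7 counts and *Ret* no more than 13. *Hoxb7* had 872 to 1086 counts in control and 458 to 890 in mutant, and *Wnt11* 188 to 437 and 85 to 222. *Krt8* reached 230 counts in control and 449 in mutant, and *Calb1* 18 and 216. Endothelial markers, of which 1 of 3 tested was higher, summed to at most 6.63 CPM and erythroid markers to at most 2.66 CPM in any library. Of all genes tested, 7.82% passed as higher in mutant and 7.02% as lower. The part of these cells in the residual *Uqcrq* counts was not tested.

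**Figure D2:**
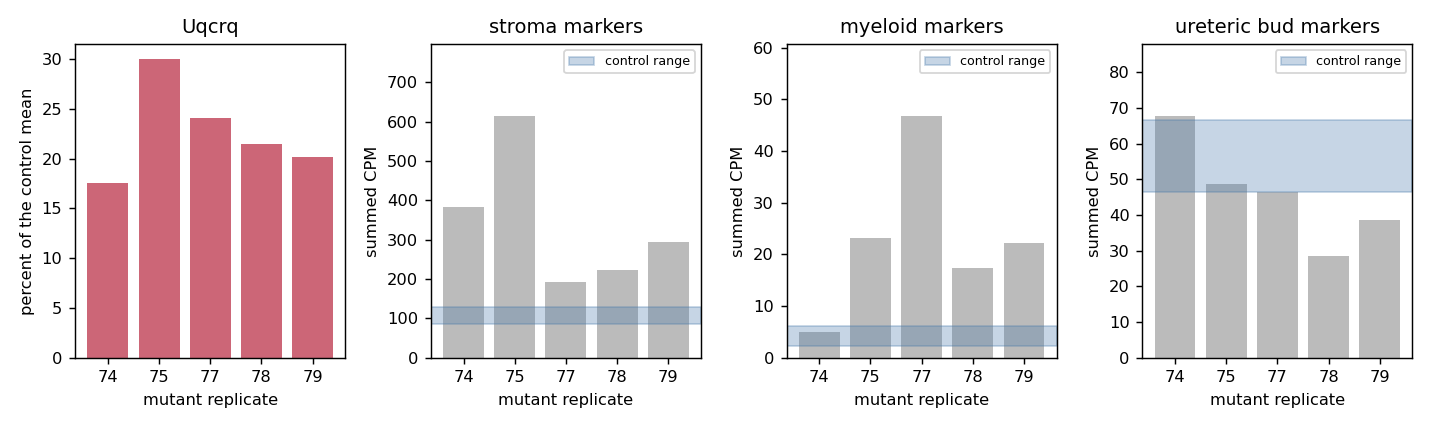
*Uqcrq* as a percentage of the control mean and summed CPM of stromal, myeloid and ureteric bud markers in each of the 5 mutant libraries (bars from 0); blue bands are the range of the 4 control libraries. Replicate 75 is highest for both *Uqcrq* (30.0%) and stroma (613 CPM), and replicate 74 is lowest for *Uqcrq* (17.5%) and has 382 CPM of stromal markers. The part of other cells in the residual *Uqcrq* counts was not tested.

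Of the other 9 genes, 1 passed the threshold, and it was lower in mutant. Over all genes tested, 14.8% passed in either direction and 7.02% were lower, so the share among these genes is close to the background. Their median log2 fold change was -0.04, against -0.01 over all genes tested. All 9 were within 0.5 of 0, as were 10686 of the 14990 genes tested. Without adjustment 3 of the 9 had an edgeR p under 0.05, against 31.4% of all genes tested.

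None of the redox subunits passed the threshold. *Cyc1*, which encodes cytochrome c1, was at 478, 374, 394 and 444 CPM in control and 398, 437, 407, 423 and 391 CPM in mutant. All 5 mutant values were inside the control range, and the log2 difference was -0.04 (95% interval -0.27 to 0.19, edgeR adjusted p = 0.842). *Uqcrfs1*, which encodes the Rieske protein, was at 264 ± 44.7 CPM among control libraries (SD, n = 4) and 286 ± 37.9 CPM among mutants (SD, n = 5), with a log2 difference of 0.11 (95% interval -0.19 to 0.42, edgeR adjusted p = 0.618). The mitochondrially encoded cytochrome b gene, *mt-Cytb*, stands outside the 10 genes and was at 4210 ± 719 CPM among control libraries (SD, n = 4) and 4710 ± 725 CPM among mutants (SD, n = 5) (log2 difference 0.16, edgeR adjusted p = 0.506).

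Neither core protein passed the threshold, and their differences had opposite signs. *Uqcrc1* (core protein 1) was at 901, 706, 797 and 858 CPM in control and 641, 754, 713, 682 and 648 CPM in mutant. Of the mutant values, 3 were below the lowest control and the other 2 were inside the control range. The log2 difference was -0.25 (SE 0.11, 95% interval -0.48 to -0.01) and did not pass (edgeR adjusted p = 0.143, unadjusted p = 0.042). *Uqcrc2* (core protein 2) was at 322 ± 55.1 CPM among control libraries (SD, n = 4) and 358 ± 52.9 CPM among mutants (SD, n = 5), with a log2 difference of 0.15 (95% interval -0.16 to 0.46, edgeR adjusted p = 0.507). Per length, the ratio of *Uqcrc1* to *Uqcrc2* was 2.49 to 3.09 in control libraries and 1.89 to 2.54 in mutant libraries, so that the ranges overlapped.

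Of the small subunits, *Uqcr10* was at 230, 169, 186 and 207 CPM in control and 146, 167, 155, 193 and 151 CPM in mutant. A single mutant library, replicate 78, reached into the control range. The log2 difference was -0.29 (SE 0.12, 95% interval -0.55 to -0.02), and it did not pass (edgeR adjusted p = 0.129, unadjusted p = 0.0358). *Uqcr11*, which encodes another small membrane subunit, had a log2 difference of -0.17 (95% interval -0.45 to 0.12, edgeR adjusted p = 0.422), with 177 to 240 CPM in control and 156 to 220 CPM in mutant. *Uqcrh*, the hinge protein next to cytochrome c1, was at 188 to 300 CPM in control and 217 to 321 CPM in mutant (log2 difference 0.12, 95% interval -0.21 to 0.46, edgeR adjusted p = 0.619). *Uqcrb*, a small matrix-side subunit beside cytochrome b, was at 143 to 194 CPM in control and 152 to 241 CPM in mutant (log2 difference 0.18, 95% interval -0.16 to 0.52, edgeR adjusted p = 0.466). For these 4 genes the intervals leave room for differences of about 0.5 on the log2 scale in at least 1 direction.

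*Bcs1l* encodes the AAA-family ATPase that places the Rieske protein into the complex. It was at 27.1, 22.5, 22.1 and 27.7 CPM in control replicates 71, 72, 73 and 76, and at 17.9, 17.8, 16.5, 19.3 and 18.8 CPM in mutant replicates 74, 75, 77, 78 and 79. The genotypes did not overlap, as was the case for 7.73% of all genes tested in that direction. *Bcs1l* fell by 0.46 on the log2 scale (SE 0.14, 95% interval -0.75 to -0.17, edgeR adjusted p = 0.0385), with an exact permutation p of 0.00794. The call was lost in 9 of 16 alternative analyses, among them 8 of the 9 that left out 1 library (adjusted p from 0.0575 to 0.0951) and the one without a filter on low counts (adjusted p = 0.0974), while the direction held in all 16. The call was kept without mutant replicate 74. The part of the stromal and committed cell markers, which moved with genotype, in this difference was not tested.

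**Figure D3:**
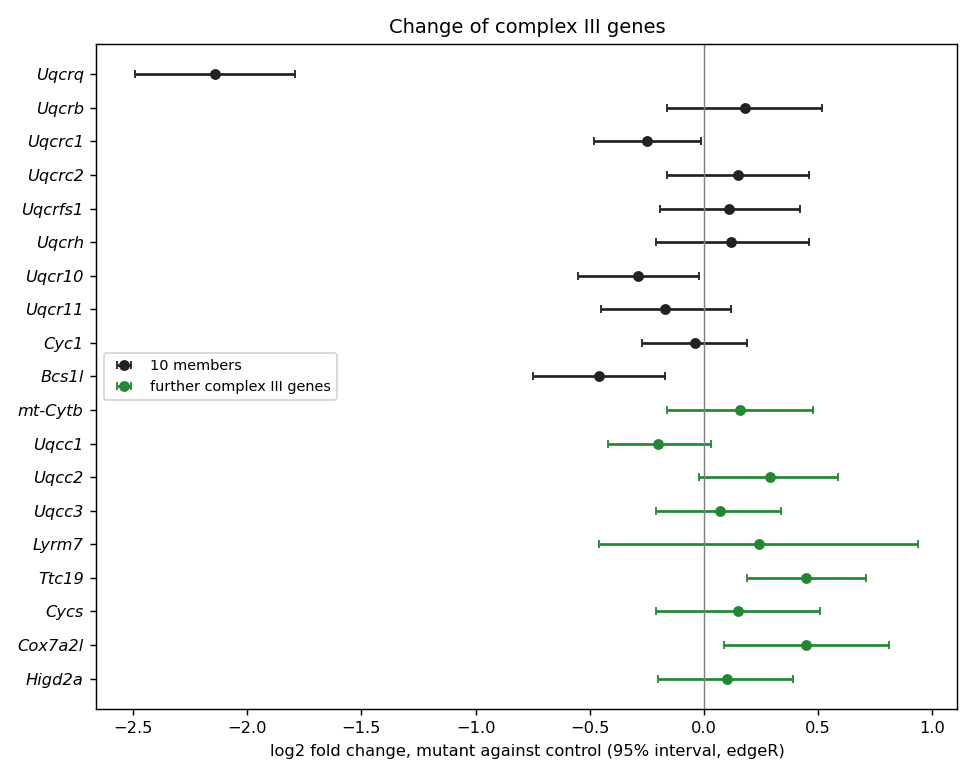
Log2 fold change of mutant against control with its 95% interval (edgeR, 4 control and 5 mutant libraries) for the 10 complex III genes (black) and 9 further genes of complex III biology (green); *Uqcc3* is the row the table names AI462493. *Uqcrq* stands apart at -2.14, and the others lie between -0.46 (*Bcs1l*) and 0.45 (*Ttc19*, *Cox7a2l*).

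Levels were next compared within each library, after division of the counts by the gene length in the table. In control the order from highest to lowest CPM per kilobase was *Uqcrc1* (493), *Uqcr10* (388), *Cyc1* (354), *Uqcr11* (332), *Uqcrh* (303), *Uqcrb* (301), *Uqcrfs1* (194), *Uqcrc2* (174) and *Uqcrq* (61.8). Neighbors from *Uqcr10* to *Uqcrb* in this order, and *Uqcrfs1* and *Uqcrc2*, differed by less than the SD between control libraries. *Uqcrc1* stood above *Uqcr10*, *Uqcrb* above *Uqcrfs1* and *Uqcrc2* above *Uqcrq* by more than it. This SD includes shifts that the genes shared within a library. Relative to *Cyc1* in the same control library, *Uqcr10* was 1.06 to 1.12 and *Uqcr11* 0.894 to 0.99. *Uqcrfs1* was above *Uqcrc2* in each control library, whereas the order of *Uqcrh* and *Uqcrb* changed between them. In mutant *Uqcrc1* (416) was again highest and *Uqcrq* (14.0) lowest. This order rests on the listed lengths, which for *Uqcrq* is 1521 bases, that of Uqcrq-201. With each gene at its shortest annotated transcript that holds the full coding sequence, 405 bases for *Uqcrq*, the control level of *Uqcrq* would place it 7 of 9. *Cyc1* would then be 6 of 9 in control, and in mutant *Uqcrh* (484) would stand above *Uqcrc1* (416).

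*Uqcrq* varied less between control libraries when it was read against its own complex. As a percentage of the summed CPM per kilobase of the 8 other subunits, it was 2.42, 2.36, 2.51 and 2.45 in control replicates 71, 72, 73 and 76, and 0.503, 0.7, 0.599, 0.48 and 0.57 in mutant replicates 74, 75, 77, 78 and 79. The coefficient of variation in control was 14.1% for *Uqcrq* in CPM and 2.52% for this ratio. In mutant it was 20.9% in CPM and 15.3% for the ratio. On this scale the mutant mean was 23.4% of the control mean, close to the 22.7% found in CPM. The sum of the 8 other subunits was 2540 ± 341 CPM per kilobase among control libraries (SD, n = 4) and 2450 ± 276 among mutants (SD, n = 5), a difference smaller than the spread between libraries. Genes of other respiratory chain complexes were high or low in the same control libraries. Ratios of *Uqcrq* to them were not computed, so the tighter control values are not shown to be particular to complex III.

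**Figure D4:**
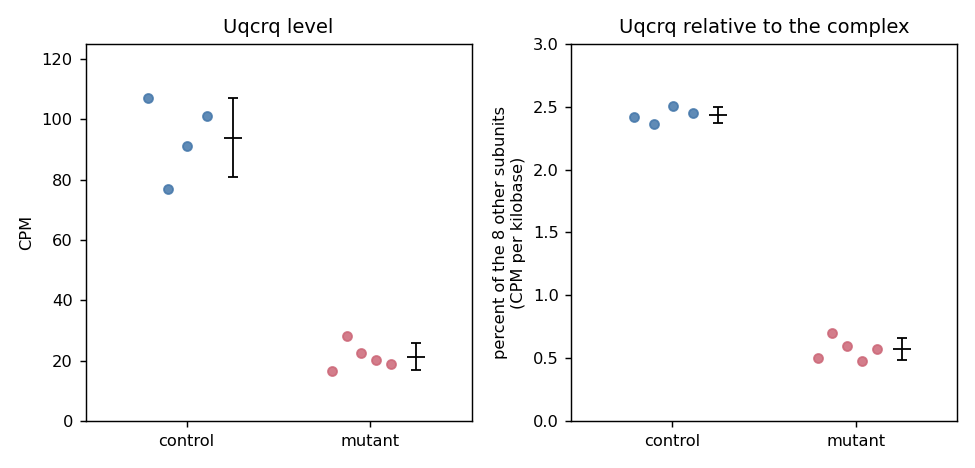
*Uqcrq* in CPM (left) and as a percentage of the summed CPM per kilobase of the 8 other nuclear-encoded subunits (right) in control (blue, n = 4) and mutant (red, n = 5) libraries, with mean ± SD; both axes start at 0. The control values draw together from a coefficient of variation of 14.1% to one of 2.52%, and those in mutant from 20.9% to 15.3%. Ratios to genes of other complexes were not computed.

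The proportions of the 8 other subunits were then given without *Uqcrq*, as percentages of their own sum per length. *Uqcrc1* made up 19.5% ± 0.684 among control libraries (SD, n = 4) and 17.1% ± 1.28 among mutants (SD, n = 5). *Uqcr10* made up 15.3% ± 0.282 in control and 13.0% ± 0.656 in mutant, and *Uqcrfs1* 7.61% ± 0.431 in control and 8.56% ± 0.416 in mutant. For these 3 subunits the 2 genotypes did not overlap, with ranges of 18.8 to 20.2% against 14.9 to 18.0% for *Uqcrc1*, 14.9 to 15.5% against 12.3 to 13.6% for *Uqcr10*, and 7.02 to 8.02% against 8.11 to 9.22% for *Uqcrfs1*. The ranges of *Uqcrb*, *Uqcrc2*, *Uqcrh*, *Uqcr11* and *Cyc1* overlapped. In CPM, 15.2% of all genes tested did not overlap between genotypes in either direction, but shares within a sum are another quantity and have no such background. The same 3 of 8 did not overlap with the shortest full coding transcripts or without length, which were added after the data were seen. With *Uqcrq* kept in the sum, the set depended on the length, and *Uqcrc1* overlapped with the shortest transcripts (15.6 to 16.9% against 13.1 to 16.1%). Relative to *Cyc1*, *Uqcrc1* did not overlap, at 1.36 to 1.46 in control and 1.16 to 1.26 in mutant, while the ratios of *Uqcrb*, *Uqcrc2*, *Uqcrfs1*, *Uqcrh*, *Uqcr10* (1.06 to 1.12 against 0.862 to 1.07) and *Uqcr11* overlapped. These shares sum to a whole, so that a lower share of 1 subunit raises the others, and they are given as a description with no test.

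All 10 genes tended to shift up or down together from library to library within a genotype. In control replicates 71 and 76 all 10 were above their control mean, with median deviations of 0.19 and 0.12 on the log2 scale. In control replicates 72 and 73 all 10 were below it, by a median of -0.23 and -0.09. In mutant replicate 74 all 10, *Uqcrq* included, were below the mutant mean (median -0.18), and in replicate 79 the number below was 9 (median -0.12). Replicates 75 and 78 had 9 and 8 genes above (medians 0.13 and 0.14), and replicate 77 had 6 (median 0.03). The median deviation of all genes tested stayed between -0.01 and 0.02. Scaling of the libraries and centering on the genotype mean hold this median near 0, so it cannot show whether the shift is particular to these genes.

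The same libraries were high or low for the other respiratory chain complexes. The complex I list was drawn by symbol and includes *Ndufa4*. Of its 36 nuclear-encoded genes, 34 were above their group mean in control replicate 71 and 1 in replicate 72. Of 10 complex IV genes, 10 were above in replicate 71 and 0 in replicate 72, and of 15 ATP synthase genes 15 and 0. In mutant replicate 74 the numbers above were 3, 0 and 1. The normalization factors, by which CPM are divided, were larger where these genes were low, at 1.085 and 1.053 in control replicates 72 and 73 against 1.007 and 1.006 in 71 and 76. In mutant they were 1.033 and 1.014 in replicates 74 and 79 against 0.933 to 0.942 in 75, 77 and 78. The surrogate variable of an alternative analysis was -0.5244 and -0.2842 in control replicates 72 and 73. It was -0.3651 and -0.2323 in mutant replicates 74 and 79, and positive in all other libraries. The part of scaling in these shifts, and what else differed between these libraries, was not tested.

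**Figure D5:**
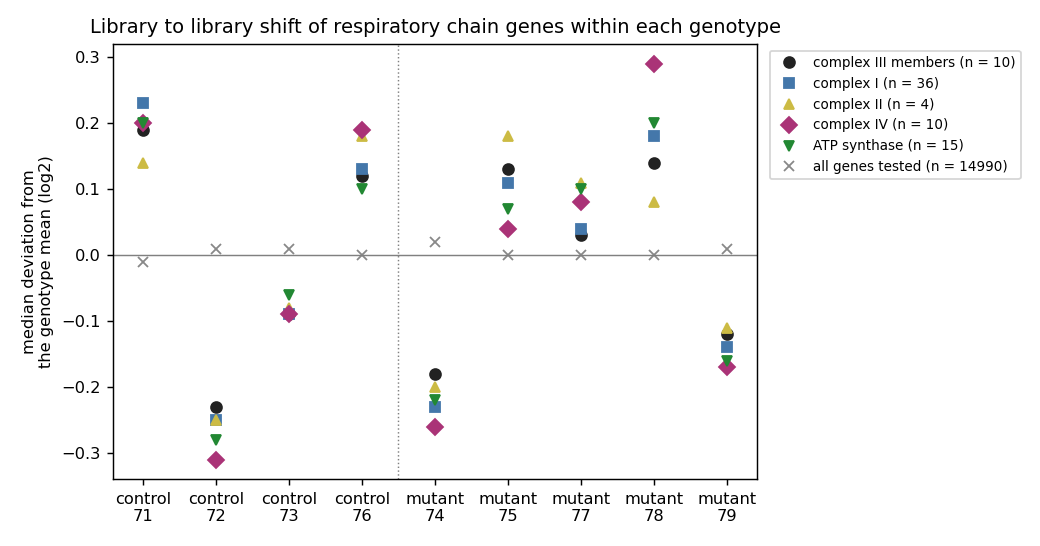
Median deviation from the genotype mean (log2 CPM) in each library, for the 10 complex III genes, the nuclear-encoded genes listed for complexes I, II, IV and ATP synthase, and all genes tested. The complexes lie high together in control replicates 71 and 76 and low together in control replicate 72 and mutant replicates 74 and 79. All genes tested stay between -0.01 and 0.02, a median that scaling and centering hold near 0.

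Between genotypes no gene in the lists of the other complexes passed the threshold in edgeR, where 14.8% of all genes tested passed. For complex I, 0 of 36 passed (1 had an unadjusted p under 0.05), and the values ran from -0.40 (*Ndufb2*) to 0.27 (*Ndufa6*) around a median of -0.03 on the log2 scale. For complex II, 0 of 4 passed (0 unadjusted), with a median of -0.04. For complex IV, 0 of 10 passed (0 unadjusted), with a median of 0.06 and the highest value in *Cox7c* (0.30). For ATP synthase, 0 of 15 passed (0 unadjusted), with a median of -0.03 and values from -0.25 (*Atp5k*) to 0.22 (*Atp5g2*). DESeq2 called 0 genes in each of these 4 lists and 21.2% of all genes tested. With 1 surrogate variable 3 complex I and 2 ATP synthase genes passed, and 20.8% of all genes. With limma-voom 3 complex I genes, 1 complex IV gene and 1 ATP synthase gene passed, and 32.4% of all genes. Every gene of these lists was within 0.5 of 0 on the log2 scale, as were 10686 of the 14990 genes tested, whereas *Uqcrq* fell by 2.14. The lists do not cover every isoform. *Cox4i2*, an isoform of a complex IV subunit that was not in the list and is named here after its value was seen, fell by 1.40 on the log2 scale (SE 0.252, edgeR adjusted p = 0.00433).

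A list of 9 further genes covered cytochrome b, the assembly of complex III and its partners, and 1 of them passed, in the direction of a rise, where 7.82% of all genes tested passed. *Ttc19*, whose product takes part in the turnover of Rieske protein fragments, was at 30.0 ± 2.33 CPM among control libraries (SD, n = 4) and 41.1 ± 3.07 CPM among mutants (SD, n = 5), with no overlap between genotypes, as was the case for 7.5% of all genes tested in that direction. It rose by 0.45 on the log2 scale (SE 0.12, 95% interval 0.19 to 0.71, edgeR adjusted p = 0.0249), and the call held in 11 of 16 alternatives, with adjusted p from 0.00251 to 0.0781. It was lost without a filter on low counts (adjusted p = 0.0573) and without control replicate 72 (0.0769) or 73 (0.0781) or mutant replicate 75 (0.0537) or 78 (0.063). *Ttc19* overlaps *Ncor1* on the opposite strand over 12026 bases, and *Ncor1* had 7469 to 9720 counts per library, so part of the reads counted for *Ttc19* cannot be assigned without strand information. *Cox7a2l*, which encodes a factor that joins complex III to complex IV, was at 212 ± 53.5 CPM (SD, n = 4) and 291 ± 43.1 CPM (SD, n = 5), with a log2 difference of 0.45 that did not pass (SE 0.17, edgeR adjusted p = 0.0812). It passed in 3 of 16 alternatives, namely DESeq2 (adjusted p = 0.0484), limma-voom (adjusted p = 0.00338) and edgeR without mutant replicate 74 (adjusted p = 0.0435).

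The factors that assemble cytochrome b had log2 differences of -0.20 for *Uqcc1*, 0.29 for *Uqcc2* and 0.07 for *Uqcc3*, which the table lists under its RefSeq synonym AI462493, with edgeR adjusted p of 0.225, 0.182 and 0.764. *Lyrm7*, the chaperone of the Rieske protein, had 39 to 97 counts in the mutant libraries and a log2 difference of 0.24 (95% interval -0.46 to 0.94). *Cycs*, which encodes cytochrome c, and *Higd2a*, which takes part in the assembly of complex IV and supercomplexes, had log2 differences of 0.15 and 0.10 (edgeR adjusted p = 0.581 and 0.668). The median of the list was 0.16.

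Reads around the targeted gene were examined because the libraries keep no strand and reads there could be counted with it. Within 100 kb of *Uqcrq* the table holds 10 genes, of which 6 were tested and 0 passed in edgeR. Over all genes tested, 14.8% passed. *Gdf9*, which encodes an oocyte growth factor, begins 192 bases from *Uqcrq* on the opposite strand. It had 32 to 64 counts in control and 32 to 101 in mutant (log2 difference 0.63, 95% interval -0.14 to 1.41, edgeR adjusted p = 0.247). *Leap2*, on the other side at a distance of 4752 bases, had at most 1 count in any library. The others tested were *Aff4* (log2 difference 0.38, edgeR adjusted p = 0.0587), *Zcchc10* (0.66, 0.0679), *Shroom1* (-1.18, 0.0901), *Gm10447* (-1.45, 0.244) and a gene whose symbol the table gives as the date 8-Sep (-0.16, 0.638). Without adjustment 3 of the 6, *Aff4*, *Zcchc10* and *Shroom1*, had an edgeR p under 0.05, against 31.4% of all genes tested. *Aff4* passed in 5 of 16 alternatives, with DESeq2 (adjusted p = 0.0254), limma-voom (0.015), 1 surrogate variable (0.0156), and edgeR without control replicate 76 (0.0435) or mutant replicate 75 (0.0331). *Zcchc10* passed in 5 of 16 as well, with DESeq2 (adjusted p = 0.0268), limma-voom (0.00675), 1 surrogate variable (0.0342), and edgeR without mutant replicate 74 (0.0127) or 79 (0.0457). *Shroom1* and *Gm10447* passed only with limma-voom (adjusted p = 0.028 and 0.0155).

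No gene overlaps *Uqcrq* in the table. Of the 10 complex III genes, 3 overlap a gene on the opposite strand, namely *Uqcrb* with *Gm10767* (465 bases, 17 to 47 counts per library), *Uqcrc2* with *Pdzd9* (183 bases, 0 to 6 counts) and *Uqcrh* with the pseudogene *Gm12854* (297 bases, 12 to 36 counts). Each of these is far below the count of its complex III partner, which for *Uqcrb* was at least 3381. No further copy of a complex III gene was found in the table by symbol or description. Reads from copies elsewhere in the genome were not analysed here.

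Among 9348 genes that averaged 10 CPM or more, the 5 whose pattern over the 9 libraries was most like that of *Uqcrq* were *Sbspon*, *Plvap*, *Kazald1*, *Nrip2* and *Crtac1*. Likeness was the root mean square difference of log2 CPM after each gene was centered on its control mean, and it was 0.31, 0.42, 0.43, 0.44 and 0.52. Their log2 fold changes were -1.99, -1.88, -2.23, -2.15 and -1.73, and none is within the complex or on chromosome 11. The measure turns mainly on the size of the fall, since the 5 mutant libraries enter it with their distance from control.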

How the data were processed

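SIX2 progenitors of 4 control and 5 mutant samples were sequenced, with 1 library each. Per the labels, RNA was amplified from low input, poly(A) selected and sequenced without strand information. The submitters' processing notes name STAR, DESeq2 and mm10, and the counting tool and annotation are not given in the sources used here. The deposited table holds the authors' read counts per gene, which were used as they stand, and the gene lengths (another unit, in bases) that the authors list beside them, used for CPM per kilobase. Its FPKM, mean signal, log2 fold change and p-value columns hold normalized values and the authors' own comparison and were not used. Library totals were 21040536 to 23986458 counts.

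Genotypes were compared with edgeR 4.0.16 in R 4.3.3 (filterByExpr, TMM, robust quasi-likelihood test, Benjamini-Hochberg adjustment over 14990 genes, threshold 0.05). CPM used TMM library sizes. Single genes were also compared by exact 2-sided permutation tests over libraries, 10 for the complex III genes. Libraries of one genotype were checked for duplicates, and none was found. The fitting was tested on simulated data. The alternatives tried were limma-voom (limma 3.58.1), DESeq2 1.42.0, 1 surrogate variable (sva 3.50.0), upper-quartile or RLE scaling, no low-count filter or a minimum of 10 counts in every library, and leaving out each library in turn. Genomic positions of exons and the coding sequence came from GENCODE vM21, whose gene spans equal those of the table for 7 of the 10 genes. Figures were drawn with matplotlib 3.10.9 in Python 3.11.15.

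The 10 genes and the other lists were chosen with earlier results of these data known. The genes named were the 10, the further complex III list, genes within 100 kb of *Uqcrq*, genes overlapping any of the 10, copies with a mean of at least 1 CPM, the 5 genes most like *Uqcrq*, the highest or lowest gene of each other complex and the markers of cell types. A further progenitor marker of the list is not reported here.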

Additional observations from a re-analysis of the deposited data

Results flagged for a closer look

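Of 68 groups of 4 or 5 libraries examined for a sample far from the others, 2 held one, where chance gives about 1 in 20, or 3.4. *Uqcrc1* made up 14.8% of the 9 subunits per length in mutant replicate 78, against 17.1% to 17.9% in the other mutant libraries. *Cyc1* made up 14.3% in control replicate 72, against 13.3% to 13.5% in the other control libraries.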

How the results depend on the processing

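No paired analysis was made, because the labels do not say which control and mutant samples, if any, were littermates. The fall of *Uqcrq* passed in all 16 alternatives (log2 -2.3 to -2.06), and its level in mutant was 21.2% to 22.8% of control over the normalizations and 20.8% to 24% with 1 library left out. Of the other 9 complex III genes, 1 passed in the main analysis, 0 without a filter, 3 with 1 surrogate variable (*Uqcrc1*, *Uqcr10*, *Bcs1l*), 3 at an unadjusted p under 0.05, and 0 to 1 with 1 library left out. Of the 9 further genes, 1 passed in the main analysis, 0 without a filter, 2 with DESeq2, 3 with limma-voom (*Uqcc2*, *Ttc19*, *Cox7a2l*), 2 unadjusted, and 0 to 2 with 1 library left out. Over all genes tested, 14.8% passed in the main analysis, 21.2% with DESeq2, 32.4% with limma-voom and 20.8% with 1 surrogate variable. At an unadjusted p under 0.05 in edgeR the share was 31.4%. Without a filter 1975 of 26858 genes passed, and with 1 library left out 1046 to 3136 passed. The share of *Uqcrq* among the 9 subunits was 2.38% in control and 0.567% in mutant per listed length, 3.44% and 0.827% without length, and 7.64% and 1.9% with the shortest full coding transcript, a length chosen after the data were seen. Over 24 named genes and 17 alternatives, 367 results kept their side of the threshold, 24 gained a call and 14 lost one, no called gene changed direction, and 8 differences without a call changed sign. Over all genes, calls ranged from 1046 (without control replicate 73) to 4858 (limma-voom), with 2225 in the main analysis, and the median log2 fold change was between -0.036 and 0.048. The cause of these shifts was not tested. Counts per library were lowest for *Lyrm7* and *Gdf9* among the genes given with intervals, and how much of their spread is counting error was not tested.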
